A study of Mus musculus with 24 samples.

Results

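Glucocorticoid-responsive genes were followed across the 4 conditions of an RNA-seq experiment on mouse visual cortex. The set was chosen by gene symbol and holds 10 genes of the 55414 in the count table: the receptors Nr3c1 and Nr3c2, and the hormone-responsive genes Fkbp5, Tsc22d3, Sgk1, Zbtb16, Pdk4, Cdkn1a, Errfi1 and Klf9. All 10 were among the 14464 genes whose highest count reached 30 and which were therefore tested. Fkbp5, Sgk1, Cdkn1a and Klf9 were higher in psilocybin-light mice than in dark mice, with fold changes between 1.68 and 1.94, and Nr3c2 was lower, in a comparison that called 38.4% of all genes. The dark libraries also differed from the others in markers of hippocampus and hypothalamus. Of these 5 calls only that of Fkbp5 passed with either marker level as a covariate. With the hypothalamus and amygdala level the log2 differences were 1.27, 0.63, 0.65, 0.27 and 0.06 for Fkbp5, Sgk1, Cdkn1a, Klf9 and Nr3c2. Without a covariate they were 0.81, 0.75, 0.96, 0.78 and -0.65. Between psilocybin-light and light mice, both of which were in light, 0 of 10 members and 0.608% of all genes passed the test.

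Glucocorticoids, in mice mainly corticosterone, are released by the adrenal gland in stress and over the day, and enter cells freely. They bind 2 intracellular receptors, the glucocorticoid receptor and the mineralocorticoid receptor, which are held in the cytoplasm by heat shock protein chaperones until the hormone binds and which then act in the nucleus on response elements in DNA. Transcripts such as Fkbp5, Sgk1 and Tsc22d3 rise within hours of the hormone in many tissues, brain included, and serve as a readout of receptor activity, although other signals also regulate each of them. Corticosterone was not measured here.

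The libraries were made from polyadenylated RNA of primary visual cortex of C57BL/6J male mice of 8 to 10 weeks, kept on a reversed light cycle and tested in their dark phase. The 4 groups had 6 libraries each. Dark mice received phosphate-buffered saline (PBS) and stayed in darkness, light mice received PBS and were moved into light for 2.5 h, and psilocybin-dark and psilocybin-light mice received 5 mg/kg of the serotonergic psychedelic psilocybin by intraperitoneal injection and then stayed in darkness or were moved into light. The study's methods say that littermates were allotted at random to the groups and do not tie a litter to a library, so the p-values measure the spread between these libraries, each taken here as 1 mouse. All groups share the injection and the time of day, the light and psilocybin-light mice were also moved, and no group without an injection was analysed here.

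The light exposure of the libraries rests on 2 sources that differ. The headings of the study's supplementary count table, followed here, give libraries 1 to 6 as dark, 7 to 12 as psilocybin-dark, 13 to 18 as light and 19 to 24 as psilocybin-light. In the sample labels the drug of each of the 24 libraries is the same, but light and darkness are exchanged. A reader who follows the labels should read dark as light, and psilocybin-dark as psilocybin-light, and the reverse, throughout. The differences between 2 sets of libraries stay as they are, and only the name of the light condition changes. The interaction, the psilocybin difference in light less that in the dark, changes its sign.

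Total counts ranged from 13552516 to 17906994 per library, and the common biological coefficient of variation was 0.182. The dark libraries stood apart in tissue markers. The summed level of 9 hippocampal markers was 98.7 to 367.6 CPM (counts scaled to the library total) in the dark group and 39.1 to 66.1 CPM in the other groups, and that of 12 markers of hypothalamus and amygdala was 25.0 to 257.8 CPM against 7.09 to 43.4 CPM. Of the 7 hippocampal markers tested, 4, 2 and 5 were called lower in light, psilocybin-dark and psilocybin-light than in dark. Of hypothalamus and amygdala, all 6 markers tested were called lower in each. The hippocampal marker Fibcd1 averaged 2159 normalised counts in dark and 189.2, 166 and 151.6 in the other groups, in the same order. The hippocampal sum thus does not stand for each of its markers alike. None of the 9 hippocampal markers was at 0 in all libraries of a group, and of the 12 only Six6 was, in the light and psilocybin-dark groups. Of the 7 markers of cortical glutamatergic neurons, 5 were called higher in each of the other groups than in dark, and their summed level was 799.5 to 2120 CPM in dark libraries and 1867 to 2534 CPM in the others. The dark libraries thus carried less of some cortical markers than the visual cortex label implies. Slc17a7, a vesicular glutamate transporter of cortical excitatory neurons, was at 11160 normalised counts in the lowest dark library. The lowest light, psilocybin-dark and psilocybin-light libraries had 23930, 24550 and 23020. The 6 cerebellar markers summed to 1901 CPM in dark library 1, 4054 in dark library 6, 1836 in psilocybin-dark library 12 and 1142 in light library 18, and to at most 107.3 in the other libraries. What part these tissue differences have in any difference from the dark group was not tested beyond fits with a marker level as a covariate. In bulk tissue fewer cells of a type and less RNA per cell cannot be told apart.

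Response elements near the members were read from the GRCm39 reference, since they show where a hormone-bound receptor could contact these genes. The 10001 bases centred on each gene's canonical transcription start were searched for 2 motifs, each an inverted repeat with a spacer of 3 bases that reads the same on both strands: the full element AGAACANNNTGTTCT and the looser core GNACANNNTGTNC, which lies inside the full one. The full element was found near 17 of 14427 genes tested that the annotation names (0.118%), and of the members near Sgk1. The core was found near 2258 of the 14427 genes (15.7%) and near 3 of the 10 members, Sgk1, Cdkn1a and Fkbp5. The sequences are printed 5′ to 3′ on the strand of the gene, with the motif in capitals. The Sgk1 element is at chr10:21869592-21869622 on the plus strand, centred at base -958 from the start and within an intron of a longer Sgk1 transcript. The Cdkn1a core is at chr17:29313666-29313694 on the plus strand, at 942 bases after the start, and the Fkbp5 core is at chr17:28703919-28703947 on the minus strand, 1219 bases after the start, both within introns.
Sgk1: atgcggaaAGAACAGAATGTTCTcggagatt
Cdkn1a: tttggcggGCACAGTATGTTCccagggaa
Fkbp5: ggggctcgGGACAGGGTGTACagcgcttg
The core was also found near 16 of 32 other listed glucocorticoid targets (50%). A match describes these letters only, and binding of the receptor was not measured.

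To compare levels between genes, normalised counts were divided by exon length and depth, as RPKM (reads per kilobase of exon, scaled for depth). Klf9 was highest, with a mean of 51.6 RPKM over the 24 libraries (range 27.3 to 64.4), followed by Tsc22d3 at 19.6, Sgk1 at 16.0, Nr3c1 at 15.8 and Cdkn1a at 9.49 RPKM. Fkbp5 at 7.73, Zbtb16 at 7.63 and Errfi1 at 7.20 RPKM came next, and Nr3c2 at 5.10 and Pdk4 at 3.16 RPKM were lowest. The range of Klf9 over libraries lay above that of every other member. Below it each neighbour in this order overlapped the next, so that Sgk1 and Nr3c1, or Fkbp5, Zbtb16 and Errfi1, cannot be ranked. The glucocorticoid receptor transcript was above that of the mineralocorticoid receptor, whose highest library was at 9.66 RPKM against a lowest of 11.8 RPKM for Nr3c1.

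**Figure D1:**
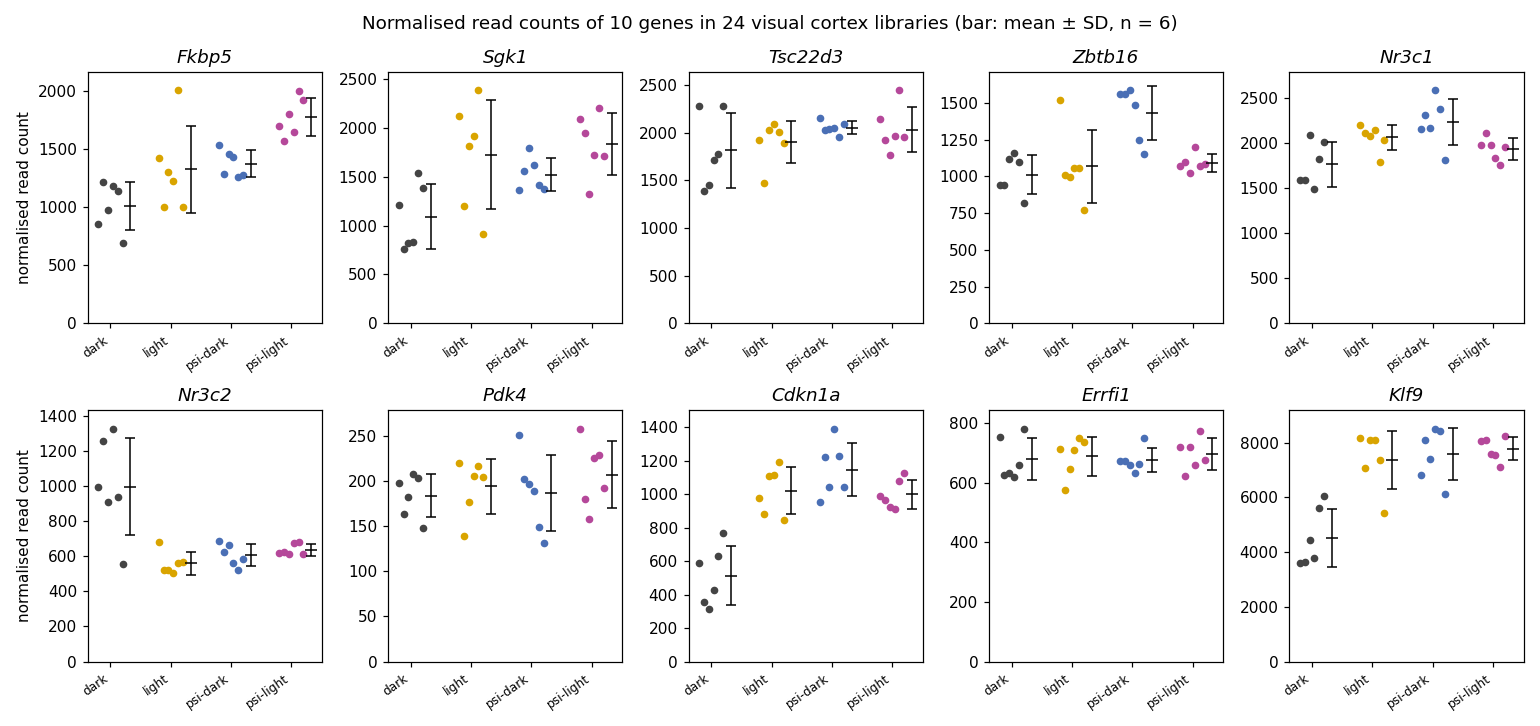
Normalised read counts (vertical axes, from 0) of the 10 genes by group (horizontal axes, psi for psilocybin), with 1 point per library and bars at the mean ± SD of 6 libraries. Cdkn1a and Klf9 are low in the dark group, Nr3c2 is high in 5 of 6 dark libraries, Fkbp5 is highest in the psilocybin-light group, and Pdk4 and Errfi1 lie at like levels in all groups.

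Nr3c1 encodes the glucocorticoid receptor (chromosome 18, 39543598 to 39652474 in GRCm39). Its normalised counts (lowest, median, highest) were 1497, 1706 and 2099 in dark, 1799, 2102 and 2204 in light, 1817, 2242 and 2589 in psilocybin-dark and 1761, 1967 and 2113 in psilocybin-light libraries. The groups overlapped, with most dark libraries at the low end and most psilocybin-dark libraries at the high end. Nr3c1 rose by 0.23 on the log2 scale in light over dark (SE 0.08, adjusted p = 0.0432) and by 0.34 in psilocybin-dark over dark (SE 0.08, adjusted p = 0.00473). The psilocybin-light difference from dark was 0.13 (95% interval -0.04 to 0.31, adjusted p = 0.221). The interaction, the psilocybin difference in light less that in the dark, was -0.43 (SE 0.12, adjusted p = 0.0254). The rise with light did not pass in 9 of the 24 refits on 23 libraries, those without dark 1, 2, 4 or 5 or light 13, 14, 15, 16 or 18, with adjusted p up to 0.106, and the interaction without psilocybin-dark library 10 (adjusted p = 0.0518). With the hippocampal marker level as a covariate the rises over dark were -0.11 in light and -0.0157 in psilocybin-dark mice (adjusted p = 0.584 and 0.978) and the interaction was -0.12 (adjusted p = 0.819), and with the hypothalamus and amygdala level they were -0.12, -0.0031 and -0.11 (adjusted p = 0.527, 0.995 and 0.755). Both covariates thus ended these calls and turned the direction of the rises.

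Nr3c2 encodes the mineralocorticoid receptor, which has the higher affinity for corticosterone and is known for strong expression in the hippocampus. Its normalised counts in dark libraries 1 to 6 were 993.9, 1258, 910.4, 1327, 939.6 and 553.8. The light libraries had 502.1, 541.6 and 682.4 (lowest, median, highest), the psilocybin-dark libraries 523.4, 603.1 and 687.7, and the psilocybin-light libraries 610.8, 619.3 and 679.4. Dark libraries 1 to 5 were above every other library, and dark library 6 lay among the other groups. Nr3c2 fell by 0.83 on the log2 scale in light (SE 0.14, adjusted p = 8.58e-05), by 0.72 in psilocybin-dark (SE 0.14, adjusted p = 0.000568) and by 0.65 in psilocybin-light mice (SE 0.14, adjusted p = 0.000651), each against dark. The hippocampal marker sum in dark libraries 1 to 6 was 224, 236.8, 128, 367.6, 165.8 and 98.7 CPM, so that library 6 was lowest and library 4 highest in both Nr3c2 and these markers. With the hippocampal marker level as a covariate the differences were -0.37, -0.23 and -0.14, with adjusted p of 0.315, 0.794 and 0.756. With the level of hypothalamus and amygdala markers they were -0.15, -0.0351 and 0.0612, with adjusted p of 0.613, 0.944 and 0.857. The hippocampal covariate was the mean log2 CPM of the 7 markers tested, not the sum. The slope in such a fit comes from the spread within groups. The hippocampal sums of the dark libraries and of the others do not overlap, so an adjusted difference may reach beyond the levels that the groups share. The part of tissue in the Nr3c2 difference was not tested in another way.

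The chaperones and coregulators of the receptors were read from a list of 22 genes, of which 21 were tested and Hsd11b2, the enzyme that inactivates corticosterone in kidney, was not. In light against dark 1 gene rose and 5 fell, in psilocybin-dark 1 rose and 3 fell, and in psilocybin-light 2 rose and 8 fell. All 3 comparisons use the dark libraries, which differ in tissue markers, and the values of this list are given without a marker covariate. The share of all genes called was 31.9%, 24.7% and 38.4% in these 3 comparisons, against 6, 4 and 10 of 21 list members, or 28.6%, 19.0% and 47.6%. Ncoa1, a p160 coactivator of nuclear receptors, fell by 0.29, 0.15 and 0.31 on the log2 scale (adjusted p = 0.000388, 0.0457 and 0.00013), and its relative Ncoa3 rose by 0.25, 0.26 and 0.16 (adjusted p = 0.00067, 0.00068 and 0.0138). The cytosolic chaperone Hsp90aa1 fell by 0.18 in light (adjusted p = 0.00186) and by 0.22 in psilocybin-light mice (adjusted p = 0.000229). The Hsp70-interacting cochaperone St13 fell by 0.15 in light (adjusted p = 0.0097) and by 0.27 in psilocybin-light mice (adjusted p = 4.92e-05). The immunophilin Ppid fell by 0.14, 0.17 and 0.15 in light, psilocybin-dark and psilocybin-light mice (adjusted p = 0.0181, 0.00921 and 0.0109), and the Hsp70-Hsp90 organiser Stip1 by 0.14, 0.19 and 0.24 (adjusted p = 0.0475, 0.0124 and 0.00121).

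Ptges3 was the 1 list member called in psilocybin-light against light mice, where 0.608% of all genes were called. That count was 0 in 9 of 24 refits without 1 library (light 13, 14, 15 or 16, psilocybin-light 19, 20, 22, 23 or 24). It encodes p23, a cochaperone that stabilises the hormone-binding state of the receptor. Its normalised counts were 843.5, 949.6 and 1030 in dark, 816, 892.4 and 921.5 in light, 811.8, 893 and 949.3 in psilocybin-dark and 711.4, 741.5 and 808.6 in psilocybin-light libraries (lowest, median, highest). The psilocybin-light libraries were all below those of every other group. Ptges3 fell by 0.32 against dark (SE 0.05, adjusted p = 3.18e-05), by 0.23 against light (SE 0.05, adjusted p = 0.0363) and by 0.24 against psilocybin-dark mice (SE 0.05, adjusted p = 0.00612). St13 also fell against psilocybin-dark mice, by 0.15 (adjusted p = 0.0308).

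Fkbp5 encodes FKBP51, an immunophilin that binds the receptor complex and lowers its affinity for the hormone, a negative feedback (chromosome 17, 28618058 to 28737521). Its normalised counts were 690.8, 1061 and 1217 in dark libraries (lowest, median, highest), with a mean of 1011 ± 208 (SD, n = 6). Light libraries had 999.9, 1263 and 2006, with a mean of 1326 ± 373. Psilocybin-dark libraries had 1259, 1358 and 1539, with a mean of 1377 ± 117, and psilocybin-light libraries 1575, 1755 and 2004, with a mean of 1777 ± 165. All psilocybin-dark libraries were above all dark libraries and below all psilocybin-light libraries, whereas the light group overlapped each of the others, with light library 17 at 2006 and the next at 1425. Fkbp5 rose by 0.39 on the log2 scale in light (SE 0.14, adjusted p = 0.042), by 0.45 in psilocybin-dark (SE 0.14, adjusted p = 0.0272) and by 0.81 in psilocybin-light mice (SE 0.14, adjusted p = 0.00014), a fold change of 1.76.

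The psilocybin-light rise of Fkbp5 over dark passed the test in all 37 alternative fits that keep the library groups, with adjusted p up to 0.0483, the hippocampal covariate included. With the hypothalamus and amygdala covariate the light, psilocybin-dark and psilocybin-light rises were 0.82, 0.88 and 1.27 (adjusted p = 0.0281, 0.0805 and 0.00211). Each was larger than without it. With the cerebellum covariate, chosen after seeing the data, the 3 rises were 0.25, 0.35 and 0.65 (adjusted p = 0.174, 0.0563 and 0.00165). Each of these was smaller than with no covariate. The light rise was lost in 6 of 24 fits without 1 library (dark 1, 3 or 6, light 13, 15 or 17, adjusted p up to 0.155), and the psilocybin-dark rise in 5 (dark 1 or 6, psilocybin-dark 7, 9 or 10, adjusted p up to 0.059). Without both cerebellum-marked dark libraries, 1 and 6, these rises were 0.24 (adjusted p = 0.186) and 0.29 (adjusted p = 0.116). Psilocybin-light against light mice gave 0.42 (95% interval 0.12 to 0.72, adjusted p = 0.246), and 0.59 without light library 17 (adjusted p = 0.0178). Psilocybin-light against psilocybin-dark mice gave 0.37 (95% interval 0.07 to 0.67, adjusted p = 0.139), with no overlap of the groups, and passed the test with only these groups in the fit (adjusted p = 0.00442) and without the 4 libraries with high cerebellar markers (adjusted p = 0.0435). The interaction was -0.02 (95% interval -0.45 to 0.40), so a departure from additive log2 changes was not detected within that interval.

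Tsc22d3 encodes GILZ, a leucine zipper protein that carries part of the anti-inflammatory action of glucocorticoids. Its normalised counts ranged from 1385 to 2286 in dark, 1473 to 2088 in light, 1961 to 2155 in psilocybin-dark and 1762 to 2444 in psilocybin-light libraries. The medians were 1746, 1969, 2046 and 1964, and every group lay within or overlapped the range of the dark libraries. The differences from dark were 0.07, 0.18 and 0.16 on the log2 scale for light, psilocybin-dark and psilocybin-light mice, with 95% intervals of -0.16 to 0.30, -0.05 to 0.41 and -0.06 to 0.39. Dark libraries 1 and 6, the pair with high cerebellar markers, were the highest of their group at 2286 and 2279, and the other dark libraries were at 1385 to 1774. Without that pair the differences were 0.27, 0.38 and 0.37, and each passed the test (adjusted p = 0.0209, 0.00273 and 0.00234). With the cerebellar marker level as a covariate, chosen after seeing the data, the differences were 0.20, 0.28 and 0.32 (adjusted p = 0.16, 0.0507 and 0.0305). Dark library 1 also had the highest oligodendrocyte marker sum, 7796 CPM. With the oligodendrocyte level as a covariate, likewise chosen after seeing the data, the differences were -0.04, 0.10 and 0.05 (adjusted p = 0.751, 0.441 and 0.721). With the hypothalamus and amygdala level they were 0.08, 0.19 and 0.18 (adjusted p = 0.827, 0.631 and 0.563). The part of cerebellar or other tissue in the Tsc22d3 differences was not tested in another way.

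Sgk1 encodes a kinase that raises ion channel and transporter activity and is induced by both receptors. Its normalised counts in dark libraries 1 to 6 were 1216, 756, 823, 828.1, 1541 and 1390. The light libraries had 917.6, 1866 and 2384 (lowest, median, highest), the psilocybin-dark libraries 1362, 1489 and 1799, and the psilocybin-light libraries 1327, 1838 and 2202. Dark libraries 2, 3 and 4 were below every other library, and light library 18 was the lowest outside the dark group. Sgk1 rose by 0.66 on the log2 scale in light (SE 0.20, adjusted p = 0.0153) and by 0.75 in psilocybin-light mice (SE 0.20, adjusted p = 0.00551) against dark. The psilocybin-dark difference was 0.48 (95% interval 0.06 to 0.90, adjusted p = 0.0874), and it passed the test without dark 5, dark 6 or light 18 (adjusted p down to 0.0335).

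Sgk1 is also known as a transcript of oligodendrocytes, the myelin-forming glia. The summed level of 8 oligodendrocyte markers was 1106, 1624 and 1204 CPM in dark libraries 2, 3 and 4, the lowest of the series, and 2395 to 5644 CPM in the 18 libraries of the other groups. Dark library 1 had the highest sum, 7796 CPM, with Sgk1 at 1216. With the oligodendrocyte marker level as a covariate the light difference was 0.47 (adjusted p = 0.0589) and the psilocybin-light difference 0.55 (adjusted p = 0.0243), which still passed. With the hippocampal level they were 0.28 and 0.34 (adjusted p = 0.667 and 0.59), and with the hypothalamus and amygdala level 0.54 and 0.63 (adjusted p = 0.318 and 0.229). The part of these tissues and cells in the Sgk1 difference was otherwise not tested.

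**Figure D2:**
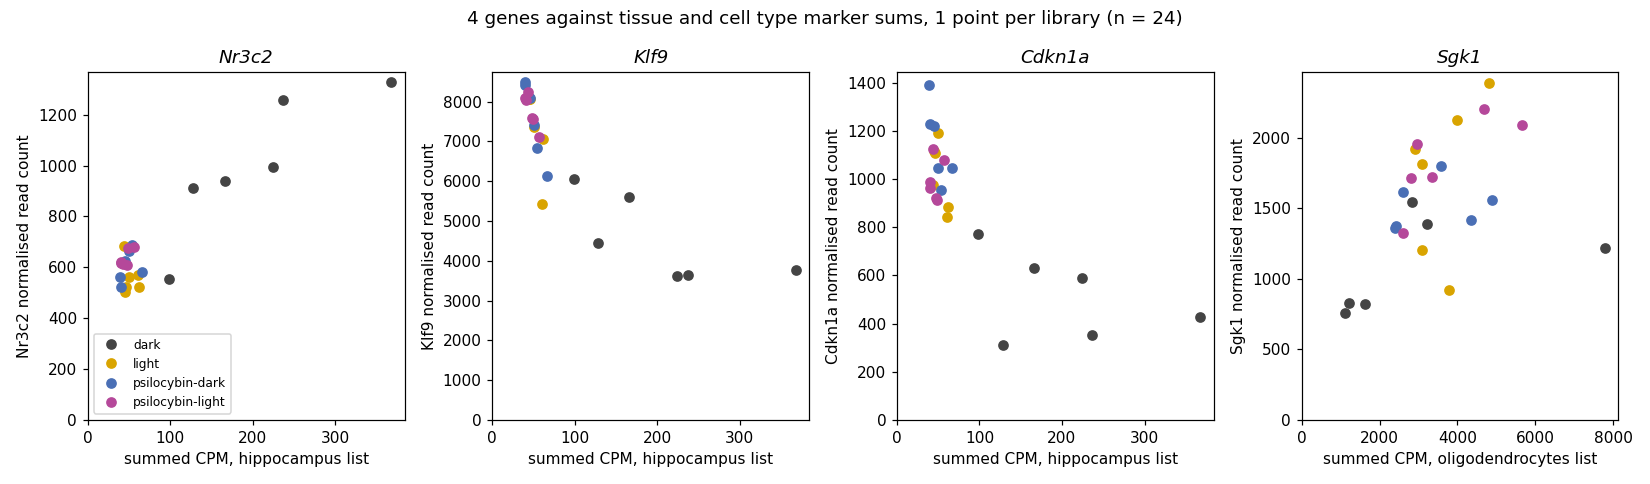
Normalised read counts of Nr3c2, Klf9, Cdkn1a and Sgk1 (vertical axes) against the summed CPM of hippocampal or oligodendrocyte markers (horizontal axes), with 1 point per library. The dark libraries lie at 98.7 to 367.6 CPM of hippocampal markers and the others at 39.1 to 66.1 CPM, with high Nr3c2 and low Klf9 and Cdkn1a on the dark side, and the dark libraries with the lowest Sgk1 have the lowest oligodendrocyte sums.

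Zbtb16 encodes PLZF, a zinc finger transcription repressor that is strongly induced by glucocorticoids in many cells. Its normalised counts were 816, 1018 and 1158 in dark (lowest, median, highest), 772.8, 1031 and 1522 in light, 1156, 1521 and 1585 in psilocybin-dark and 1021, 1079 and 1199 in psilocybin-light libraries. The psilocybin-dark group was the high one, with 4 libraries at 1483 or above, and among the other 18 libraries only light library 13 reached that level. Zbtb16 rose by 0.50 on the log2 scale in psilocybin-dark over dark (SE 0.12, adjusted p = 0.00321), a fold change of 1.42. With the hippocampal or the hypothalamus and amygdala level as a covariate the difference was 0.43 or 0.68 and no longer passed (adjusted p = 0.553 and 0.118). The light and psilocybin-light differences from dark were 0.08 and 0.11, with 95% intervals of -0.17 to 0.33 and -0.14 to 0.35.

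In psilocybin-light mice Zbtb16 was 0.39 lower than in psilocybin-dark mice (SE 0.12, adjusted p = 0.0451). This call was lost in 15 of 24 fits without 1 library (dark 5, psilocybin-dark 7 to 10, light 14 to 17 or any of psilocybin-light 19 to 24), with adjusted p up to 0.105, although the difference stayed between -0.44 and -0.36. The difference of psilocybin-dark from light mice was 0.42 (95% interval 0.18 to 0.67, adjusted p = 0.0793), and it passed the test without dark 6, psilocybin-dark 12 or light 13 (adjusted p down to 0.0125). The interaction was -0.47 (95% interval -0.82 to -0.13, adjusted p = 0.0754), and it passed the test without psilocybin-dark 12 or light 18 (adjusted p down to 0.0242).

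Cdkn1a encodes p21, an inhibitor of cyclin-dependent kinases that is induced by glucocorticoids and by p53. Its normalised counts were 312.8, 510.3 and 771.3 in dark (lowest, median, highest), and 514.5 ± 178 on average (SD, n = 6). The light libraries had 844.2, 1043 and 1193, the psilocybin-dark libraries 956.7, 1134 and 1392, and the psilocybin-light libraries 913.5, 976.9 and 1127. No dark library reached any library of the other groups, which overlapped each other. Cdkn1a rose by 0.99 on the log2 scale in light (SE 0.16, adjusted p = 9.45e-05), 1.16 in psilocybin-dark (SE 0.16, adjusted p = 3.6e-05) and 0.96 in psilocybin-light mice (SE 0.16, adjusted p = 8.68e-05), which are fold changes of 1.98, 2.23 and 1.94. The interaction was -1.19 (SE 0.23, adjusted p = 0.00381), and psilocybin-light against light mice gave -0.03 (95% interval -0.36 to 0.30).

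Klf9 encodes a Krüppel-like transcription factor induced by glucocorticoids and thyroid hormone in neurons (chromosome 19, 23118187 to 23148497). Its normalised counts were 3609, 4110 and 6053 in dark (lowest, median, highest), 5415, 7724 and 8150 in light, 6137, 7757 and 8504 in psilocybin-dark and 7123, 7819 and 8242 in psilocybin-light libraries. Only light library 18, at 5415, fell into the range of the dark libraries. Klf9 rose by 0.70 on the log2 scale in light (SE 0.12, adjusted p = 0.000179), 0.74 in psilocybin-dark (SE 0.12, adjusted p = 0.000174) and 0.78 in psilocybin-light mice (SE 0.12, adjusted p = 4.04e-05), fold changes of 1.63, 1.67 and 1.72. The interaction was -0.66 (SE 0.17, adjusted p = 0.0211).

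The libraries at the ends of the Klf9 range were compared with the hippocampal markers. Dark library 6 had the highest Klf9 and the lowest hippocampal sum of its group, light library 18 had the lowest Klf9 of its group with a sum of 60.4 CPM, and psilocybin-dark library 12 had the lowest Klf9, 6137, and the highest sum, 66.1 CPM, of its group. Light 18 and psilocybin-dark 12 are also the libraries of their groups with high cerebellar markers, and in the dark group these are 1 and 6. Dark library 1 had the lowest Klf9 of its group, 3609, with a hippocampal sum of 224 CPM, and dark library 6 the highest, 6053. Light library 14 had a higher hippocampal sum than light 18, 61.8 CPM, with Klf9 at 7061. With the hippocampal covariate the differences of Klf9 from dark were 0.11, 0.12 and 0.13 (adjusted p = 0.632, 0.811 and 0.57), and those of Cdkn1a were 0.63, 0.78 and 0.56 (adjusted p = 0.122, 0.308 and 0.19). With the hypothalamus and amygdala covariate they were 0.21, 0.24 and 0.27 for Klf9 (adjusted p = 0.413, 0.453 and 0.266) and 0.69, 0.86 and 0.65 for Cdkn1a (adjusted p = 0.0874, 0.12 and 0.0961). The part of tissue in these differences was not tested in another way.

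Pdk4 and Errfi1 passed no test between groups. Pdk4, a mitochondrial kinase that turns down glucose oxidation, ranged from 131.1 to 257.6 normalised counts over the 24 libraries, with group medians of 190, 204.9, 193 and 208.6 in dark, light, psilocybin-dark and psilocybin-light. Errfi1, an inhibitor of epidermal growth factor receptor signalling, ranged from 575.9 to 781.3 with medians of 647, 712.4, 668.4 and 697.5 in the same order. The groups overlapped for both genes. The psilocybin-light difference from dark was 0.17 for Pdk4 (95% interval -0.13 to 0.47) and 0.03 for Errfi1 (95% interval -0.11 to 0.18), so the data leave room for a larger change of Pdk4 than of Errfi1.

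Counted by comparison, 6 of 10 members were called in light against dark, 5 higher (Fkbp5, Sgk1, Nr3c1, Cdkn1a, Klf9) and 1 lower (Nr3c2), where 31.9% of all genes were called, 15.4% higher and 16.5% lower. In psilocybin-dark against dark 6 were called, 5 higher (Fkbp5, Zbtb16, Nr3c1, Cdkn1a, Klf9) and 1 lower (Nr3c2), where 24.7% of all genes were called, 11.9% higher and 12.8% lower. In psilocybin-light against dark 5 were called, 4 higher (Fkbp5, Sgk1, Cdkn1a, Klf9) and 1 lower (Nr3c2), where 38.4% of all genes were called, 17.4% higher and 21.0% lower. The median log2 difference of the 10 members was 0.15, 0.39 and 0.17 in these comparisons, and that of all genes was -0.01, -0.02 and -0.02. The comparisons share the 6 dark libraries, so a call in all 3 is not repeated evidence. The groups did not overlap for 1, 3 and 3 members, and for 10.0%, 5.58% and 15.8% of all genes.

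**Figure D3:**
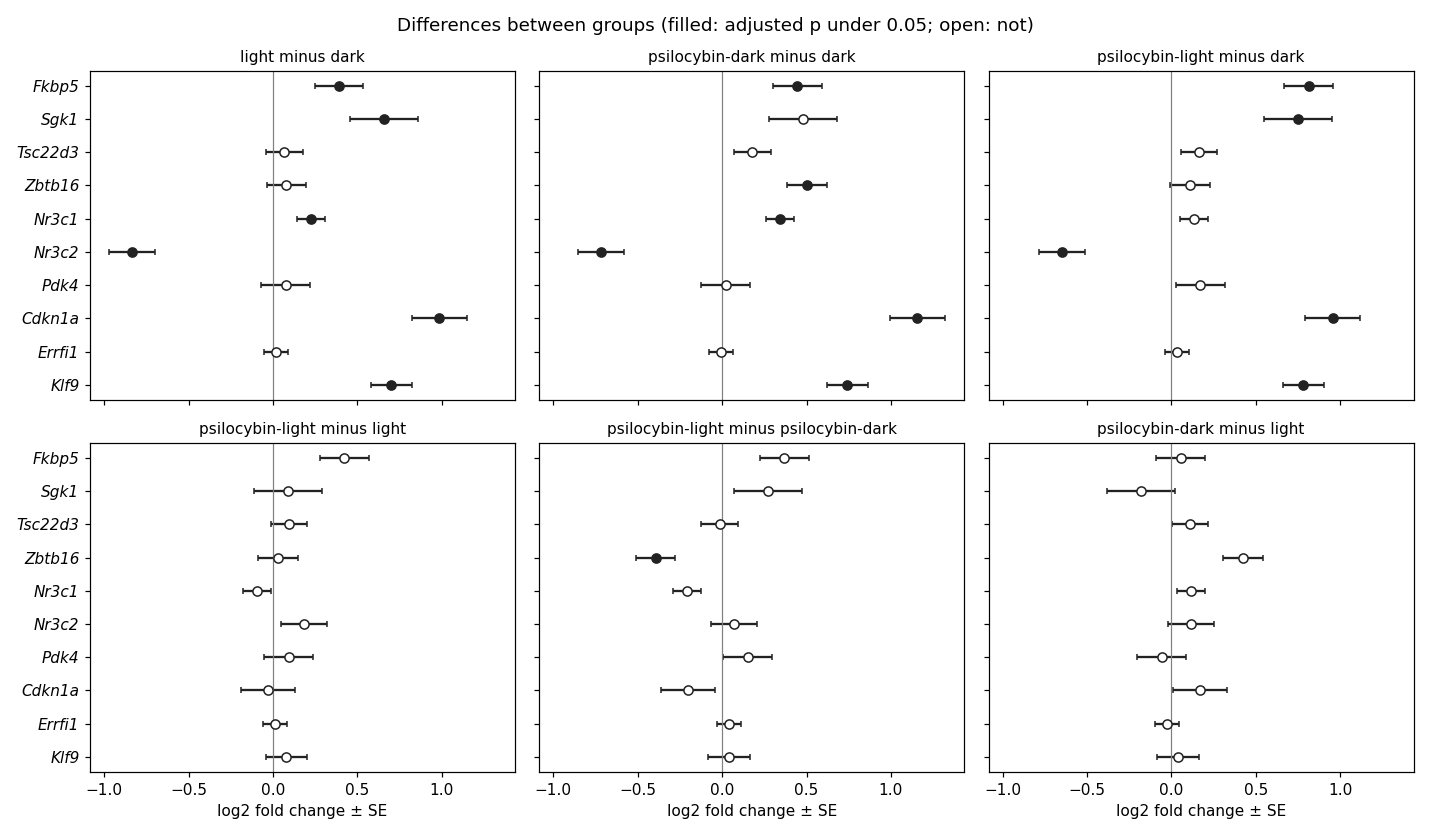
Log2 fold changes with their SE (horizontal axes) of the 10 genes (vertical axes) in the 6 comparisons between groups, filled where the adjusted p was under 0.05 in edgeR's quasi-likelihood test. The upper panels, against dark, hold 17 filled points, and the lower panels, between the other groups, hold 1, for Zbtb16 at -0.39.

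Comparisons that did not use the dark libraries held few calls. In psilocybin-light against light mice edgeR called 0 members and 0.608% of all genes, and 1 member, Fkbp5, had an unadjusted p under 0.05. DESeq2 also called 0. In psilocybin-light against psilocybin-dark mice 1 member was called, Zbtb16, which was lower, where 6.38% of all genes were called, 2.60% higher and 3.78% lower. The groups of that comparison did not overlap for 1 member, Fkbp5, and for 6.42% of all genes. In psilocybin-dark against light mice 0 members and 0.456% of all genes were called, 1 member, Zbtb16, had an unadjusted p under 0.05, and DESeq2 called 1. The share of all genes with an unadjusted p under 0.05 is not given here for either comparison with light. The interaction, which does use the dark libraries, was called for 4 members (1 higher, Nr3c2, and 3 lower, Nr3c1, Cdkn1a and Klf9) and for 8.75% of all genes, 3.89% above and 4.86% below 0.

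Another 32 genes known to respond to glucocorticoids were read from a list. In light against dark 10 were called, 8 higher and 2 lower. In psilocybin-dark against dark 4 were called, all higher. In psilocybin-light against dark 14 were called, 12 higher and 2 lower, the 2 being the transcription repressor Bcl6 and the adhesion scaffold Nedd9. As shares of the list these are 31.2%, 12.5% and 43.8%, beside 31.9%, 24.7% and 38.4% of all genes, and the difference between these shares was not tested. With 1 library left out the count ran from 6 to 11 in light (6 without light 17) and from 2 to 7 in psilocybin-dark (moved over 1.5 times without dark 2, 4 or 6 or psilocybin-dark 10). The median log2 difference of the 32 genes was 0.17, 0.09 and 0.13. Every comparison with dark uses the dark libraries, which differ in tissue markers. The values of this list, here and below, are given without a marker covariate. The part of tissue in them was not tested.

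The small GTPase Arl4d had the largest log2 difference of the 32 in each comparison with dark. Its normalised counts were 132.4, 183.1 and 231.4 in dark (lowest, median, highest), 354.9, 460.2 and 609.8 in light, 307.3, 415.4 and 461.6 in psilocybin-dark and 536.7, 573.7 and 720.3 in psilocybin-light libraries. All dark libraries were below all others, and the psilocybin-light libraries were above all psilocybin-dark ones. Arl4d rose by 1.32, 1.09 and 1.66 on the log2 scale over dark (adjusted p = 1.38e-06, 1.58e-05 and 5.92e-08) and by 0.57 in psilocybin-light over psilocybin-dark mice (adjusted p = 0.0128). Its interaction was -0.75 (SE 0.19, adjusted p = 0.02), the only one called in the list. The rises over dark and the interaction rest on the dark libraries, and no marker covariate was applied to them.

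Dusp1, a phosphatase that switches off MAP kinases and is induced by glucocorticoids as well as by neuronal activity, had medians of 485.3, 782.7, 737.1 and 1019 normalised counts in dark, light, psilocybin-dark and psilocybin-light libraries. It rose by 0.78, 0.57 and 1.18 over dark (adjusted p = 0.00108, 0.0144 and 1.16e-05) and by 0.61 in psilocybin-light over psilocybin-dark mice (adjusted p = 0.0264). The transcription factor Cebpb rose by 0.51 in light (adjusted p = 0.00259) and 0.66 in psilocybin-light mice (adjusted p = 0.000197). Fam107a, an actin-binding protein that is abundant in astrocytes and rises in stress, increased by 0.37, 0.21 and 0.34 over dark (adjusted p = 0.000405, 0.0304 and 0.000707). Rasd1, a Ras-like protein first known as dexamethasone-induced, rose by 0.50, 0.51 and 0.59 over dark (adjusted p = 0.0331, 0.0394 and 0.0115).

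Cebpd, a transcription factor related to Cebpb, was higher in psilocybin-light than in psilocybin-dark mice, with normalised counts of 79.4 to 127.1 in psilocybin-dark and 114.6 to 186.2 in psilocybin-light libraries. The rise was 0.56 (SE 0.15, adjusted p = 0.0293), and the ranges overlapped. With Arl4d and Dusp1 it made 3 genes of 32 called in that comparison, 9.38% of the list against 6.38% of all genes, a count of 1 to 5 with 1 library left out (moved over 1.5 times without dark 6 or psilocybin-dark 7). In psilocybin-light against light and in psilocybin-dark against light mice edgeR called 0 of the 32, where 0.608% and 0.456% of all genes were called. An unadjusted p under 0.05 was reached by 3 and 4 of the 32. The share of all genes at that unadjusted threshold is not given here, so these 2 counts have nothing to be set against.

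**Figure D4:**
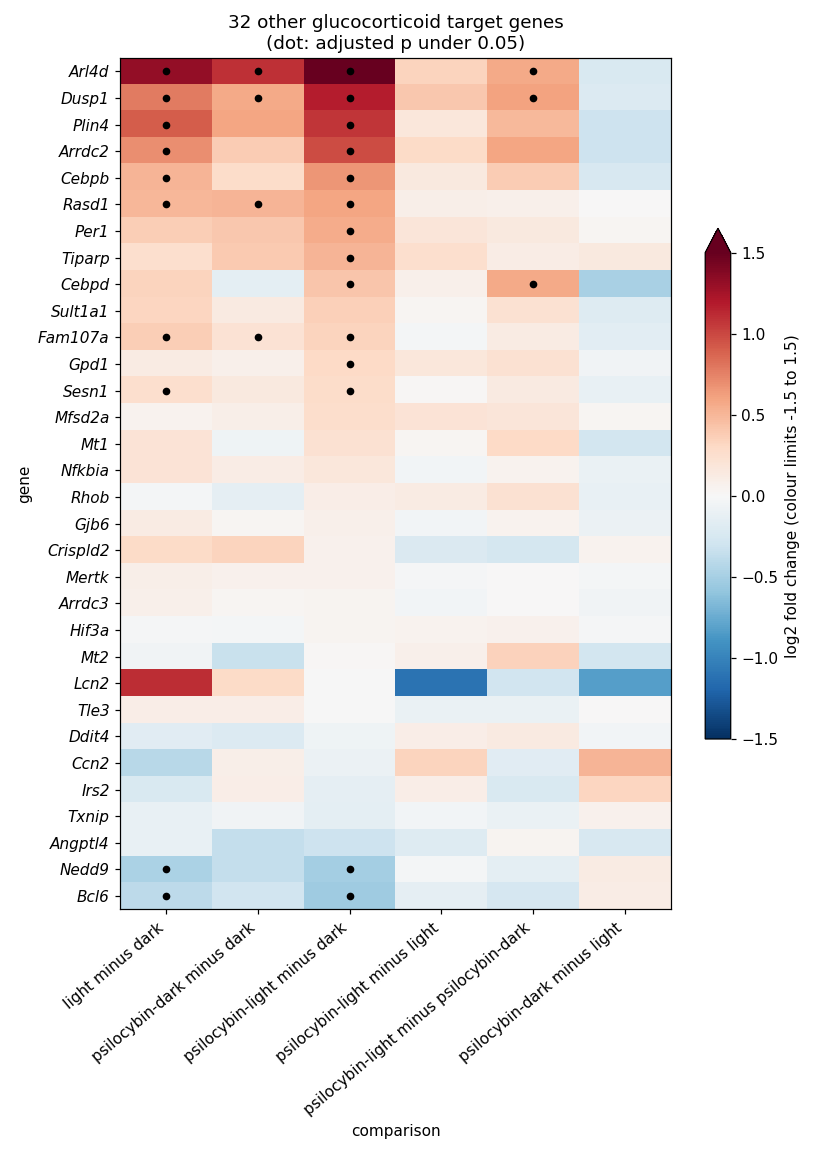
Log2 fold changes (colour, red higher and blue lower in the first-named group) of the 32 listed glucocorticoid targets (rows, ordered by psilocybin-light minus dark) in the 6 comparisons (columns), with a dot where the adjusted p was under 0.05. The 3 columns against dark hold 10, 4 and 14 dots, mostly in the upper rows. In the light and psilocybin-light columns those of Bcl6 and Nedd9 lie near the bottom. The column of psilocybin-light minus psilocybin-dark holds 3.

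Whether mice with more Fkbp5 also had more of the other members was examined on log2 CPM after the mean of each group was taken off, over 24 libraries and 9 relations. None passed an adjusted p of 0.05 in permutation tests within groups. The largest Pearson r was with Nr3c2 (r = 0.593, permutation p = 0.011, adjusted 0.0987; Spearman rho = 0.503, adjusted 0.0991), and it was 0.322 in the 18 libraries without the dark group. For Sgk1 r was 0.265 (adjusted permutation p = 0.659), and 0.695 without the dark group (adjusted permutation p = 0.204). For Tsc22d3 r was -0.123, and 0.482 without the dark group, so the sign turned, with adjusted permutation p of 0.83 and 0.276. Leaving out light library 17 and dark library 6, the farthest from their group means in Fkbp5 at 0.64 and -0.52 on the log2 scale, gave r = 0.518 for Nr3c2 and 0.320 for Sgk1, with adjusted permutation p of 0.206 and 0.536.

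Over the same 24 libraries, the genes outside the set whose deviations from group means were most like those of Fkbp5 were Rhob (r = 0.843), Zfp189 (r = 0.824) and ENSMUSG00000100891 (r = 0.816), with r of 0.809, 0.717 and 0.843 in the 18 libraries without the dark group. Rhob, a small GTPase, is also on the list of 32 targets. For Tsc22d3 they were Plekhf1, Paqr8 and Aff1, with r of 0.853, 0.827 and 0.825, and of 0.689, 0.692 and 0.702 without the dark group. These are the highest of all genes tested, chosen for their r, and the points share libraries and tissue makeup, so the values are a description only.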

How the data were processed

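RNA of visual cortex was sequenced in 24 libraries. Per the study's methods, the authors used cutadapt for trimming, STAR with GRCm39 for mapping and htseq-count with an Ensembl annotation for counting. The values the authors deposited are raw counts for 55414 genes. The submitters' processing notes name mm10, and the annotation release and strand setting are not given in the sources used here, so reads of overlapping antisense genes cannot be told apart.

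Groups followed the headings of the supplementary count table. The main test was the quasi-likelihood test of edgeR 4.0.16 (R 4.3.3) with TMM scaling, on 14464 genes that reached a count of 30 in some library, from 1 fit of the 4 group means to the 24 libraries. P-values are two-sided and Benjamini-Hochberg adjusted over these genes, with a threshold of 0.05. Intervals of 95% used the SE of the fit and a t distribution with 20 degrees of freedom. Normalised counts are counts scaled to a common library size. Totals of 13552516 to 17906994 counts per library set the precision. Alternatives were DESeq2 1.42.0, its size factors, other filters, a threshold of 0.01, a fit of the compared groups alone, a surrogate variable (1, from sva 3.50.0), marker covariates, the light exposure of the sample labels, and libraries left out. A marker covariate was the mean log2 CPM of the tested markers of a list. Correlations used log2 CPM with a prior count of 2 and 100000 permutations within groups. The test code was tested on simulated data. Gene names, positions and exon lengths came from GENCODE vM39, and sequences from GRCm39. Figures were drawn with matplotlib 3.10.9.

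The members, the gene lists and the tests were chosen with earlier results of these data known. Named were all 10 members, up to 4 called genes with the smallest p per list and comparison, and the 3 genes most like Fkbp5 and Tsc22d3. Hsd11b2, Bcl6 and Nedd9 were named after their values were seen.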

Additional observations from a re-analysis of the deposited data

Results flagged for a closer look

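Groups of 6 libraries were screened for a single library far from the rest, which chance alone gives in about 1 in 20 groups, and 2 of 40 groups were marked. Tsc22d3 had 1473 normalised counts in light library 14, where the other light libraries had 1898 to 2088. Errfi1 had 751.7 normalised counts in psilocybin-dark library 12, one of the libraries with high cerebellar markers, where the others had 631.8 to 673.4.

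The psilocybin difference in light differed from that in the dark by edgeR's test of the interaction for 4 members. The interaction was -0.43 on the log2 scale for Nr3c1, with psilocybin differences of 0.34 in the dark and -0.09 in light. It was 0.90 for Nr3c2, with -0.72 in the dark and 0.18 in light. It was -1.19 for Cdkn1a, with 1.16 in the dark and -0.03 in light, and -0.66 for Klf9, with 0.74 in the dark and 0.08 in light. Each of the 4 rests on the dark libraries, which were also the ones with high hippocampal and hypothalamic markers, and 0 of the 4 were called with either marker level as a covariate. With the hippocampal level the interactions of Nr3c1, Nr3c2, Cdkn1a and Klf9 were -0.12, 0.46, -0.85 and -0.0971, and with the hypothalamus and amygdala level -0.11, 0.25, -0.90 and -0.19, so that of Cdkn1a kept most of its size.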

How the results depend on the processing

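Members called in light against dark fell from 6 to 3 at an adjusted p under 0.01 and to 3 with only the compared groups in the fit. With the hippocampal covariate they were 0 in light, 0 in psilocybin-dark and 1 in psilocybin-light against dark, 2 in psilocybin-light against psilocybin-dark, and 0 in the interaction. With a hypothalamus and amygdala covariate, chosen after seeing the data, they were 1, 0, 1, 2 and 0 in the same order. In psilocybin-light against psilocybin-dark the 1 call became 0 at an adjusted p under 0.01, 0 with filterByExpr, 0 with no filter, 2 with only the compared groups and 3 without the 4 libraries highest in cerebellar markers (chosen after seeing the data). In psilocybin-dark against light 1 was called by DESeq2, with 1 surrogate variable, without dark libraries 1 and 6, and, both chosen after seeing the data, without the 4 cerebellar libraries or with a cerebellum covariate. The interaction had 2 calls at an adjusted p under 0.01. With 1 library left out the calls were 0 to 1 in psilocybin-light against light (1 without light 17), 0 to 2 in psilocybin-light against psilocybin-dark, and 0 to 1 in psilocybin-dark against light (1 without dark 6, psilocybin-dark 12 or light 13). The share of all genes called in each of these fits is not given here. The changes in count therefore cannot be read as particular to the members. Their cause was not tested.

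With the light exposure of the sample labels, members called in psilocybin-dark against dark, psilocybin-light against dark, psilocybin-light against light and psilocybin-dark against light were 0, 0, 6 and 5. The same sets of libraries gave calls for 0.608%, 0.456%, 24.7% and 38.4% of all genes. By construction the light-minus-dark differences turned to -0.39 for Fkbp5, -0.66 for Sgk1, -0.23 for Nr3c1, 0.83 for Nr3c2, -0.99 for Cdkn1a and -0.70 for Klf9, and the interactions to 0.43 for Nr3c1, -0.90 for Nr3c2, 1.19 for Cdkn1a and 0.66 for Klf9. Psilocybin-dark minus dark became -0.0931 for Nr3c1, 0.18 for Nr3c2 and -0.0305 for Cdkn1a, psilocybin-light minus dark -0.18 for Sgk1 and 0.12 for Nr3c2, psilocybin-light minus light 0.34 for Nr3c1, -0.72 for Nr3c2 and 1.16 for Cdkn1a, psilocybin-light minus psilocybin-dark 0.39 for Zbtb16, and psilocybin-dark minus light 0.75 for Sgk1 and -0.65 for Nr3c2. The other reversals were Nr3c1 with the hippocampal covariate (-0.11 in light, -0.0157 in psilocybin-dark) and with the hypothalamus and amygdala covariate (-0.12 and -0.0031), and Nr3c2 in psilocybin-light with the latter (0.0612). DESeq2's size factors changed 0 of 91 values in direction or call. No paired analysis was possible because the sources used here do not tie a litter to a library.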
